A study of Canis lupus familiaris with 18 samples.

Results

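Complex I (NADH:ubiquinone oxidoreductase) was followed through its NDUF genes in the right atrium (RA) and right ventricle (RV) of dogs with pacing-induced heart failure (HF). Members were all genes whose only platform symbol begins with NDUF, each read by its brightest probe set, taken by the mean over all arrays. There were 42 such genes of 15115 named on the array, and all 42 passed the filter on dim probe sets. By role, 33 encode subunits of the enzyme, of which 6 are core and 27 accessory, and 7 encode assembly factors, NDUFAF1 to NDUFAF7. The last 2 are NDUFA4, now assigned to cytochrome c oxidase, and its paralogue NDUFA4L2. Probe sets under the symbols NDUFA1, NDUFB1, NDUFB2 and NDUFAF8 were not analysed here.

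The study held 18 Affymetrix Canine_2 arrays, 3 for each of 6 groups: RA early HF, RA late HF and RA control, and RV early HF, RV late HF and RV control. HF was produced in adult mongrel or beagle dogs by continuous ventricular tachypacing, for 2 weeks in early HF and 5 weeks in late HF, although the protocol text gives 2 to 3 and 5 to 6 weeks. Total RNA came from a small snap-frozen piece of each chamber after euthanasia. The labels call the replicates biological without identifying dogs or stating whether controls carried a pacemaker, so each p-value rests on the variation among these samples, which may be partly technical.

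Complex I takes electrons from NADH and passes them to ubiquinone while pumping protons across the inner mitochondrial membrane. Its core subunits, conserved from bacteria, form the N module that oxidises NADH and the Q module that reduces ubiquinone, and further core subunits of the membrane arm are encoded by mitochondrial DNA. Accessory subunits surround this core, and assembly factors join the modules and then leave the finished enzyme. The heart relies on this respiratory chain for most of its ATP. The roles given below are those known for the human, mouse or bovine proteins.

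Values are log2 signals of a probe set, and changes are log2 differences with the standard error (SE) of a limma model fitted to all 18 arrays, 3 per group. A change passed at a Benjamini-Hochberg adjusted p under 0.05 over 25752 probe sets. Signals of different genes are not comparable, because probes differ. Array medians lay between 5.65 and 5.75, and the group means of the 3' minus 5' signal of GAPDH, a sign of RNA quality, between 0.35 and 0.45. The 3' minus middle signal of actin, a similar measure, differed between the control chambers. It was 1.88, 1.70 and 2.35 in RA controls and 1.08, 0.91 and 1.42 in RV controls. The myocyte markers TNNT2 and ACTC1 were at or above 13.13 on every array. The ventricular light chain gene MYL2 read 9.73 to 12.06 in RA early HF and 6.04 to 9.38 in RA controls. One array stood apart from its label: RA late HF replicate 3 had a MYL2 signal of 14.17, in the range of RV controls (14.13 to 14.17), and a signal of 11.65 for the atrial light chain gene MYL4, which was at or above 13.88 on the other RA arrays. RA late HF results are given with and without it, and so are the calls of other comparisons that change without it. Among RV arrays, RV late HF replicate 1 had the lowest MYL2 signal, 12.76, where the others were at or above 14.13. MYL4 read 11.79 on RV late HF replicate 2, and both arrays were kept in the main fit. In whole tissue, fewer cardiac myocytes and less RNA per myocyte cannot be told apart.

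In RA early HF, 3 subunit genes fell relative to RA controls, none of the 42 rose and 39 did not pass. NDUFS7 and NDUFS8 belong to the core Q module, and NDUFA13 is an accessory subunit also known as GRIM-19. Over all 25752 probe sets tested, 0.812% passed in either direction, 0.505% lower and 0.307% higher. At an unadjusted p under 0.05, 23 of the 42 genes were lower and 1 was higher. Counts at this unadjusted threshold, here and below, are given without the share over all genes.

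NDUFS7 carries the terminal iron-sulfur cluster that hands electrons to ubiquinone. It read 10.93, 11.02 and 11.05 in RA early HF, against 11.83, 11.70 and 11.63 in RA controls. The arrays of the groups did not overlap, and the change was -0.72 (SE 0.15, adjusted p = 0.0346), a signal 39.3% lower on the linear scale. NDUFS8, a neighbouring iron-sulfur protein of the same module, read 10.55, 10.46 and 10.84 in RA early HF, against 11.35, 11.18 and 11.14 in RA controls. All 3 HF arrays were again below all controls, by -0.61 on average (SE 0.12, adjusted p = 0.0326). NDUFS3, also a core Q subunit, read 11.12, 10.81 and 11.08 in RA early HF, against 11.41, 11.18 and 11.33 in RA controls. Its arrays did not overlap either, but the change of -0.30 (SE 0.16, adjusted p = 0.43) did not pass.

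In the N module, NDUFV1 binds NADH and the flavin cofactor. It read between 9.99 and 10.28 in RA early HF, against 10.64, 10.69 and 10.54 in RA controls, a change of -0.53 (SE 0.16, adjusted p = 0.125, or 0.0541 without RA late HF replicate 3). NDUFV2, its iron-sulfur partner, read 11.38, 11.45 and 11.25 in RA early HF, against 11.91, 11.85 and 11.71 in RA controls, a change of -0.46 (SE 0.13, adjusted p = 0.0905). Neither passed with all arrays, although in both genes every HF array was below every control array. NDUFS1, the largest core subunit, was the exception among the 6 core genes. It read 11.43, 11.85 and 11.69 in RA early HF, against 11.69, 11.64 and 11.72 in RA controls, with overlapping arrays and a change of -0.03 (SE 0.13, adjusted p = 0.966).

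Among the 27 accessory subunit genes, 1 fell, 0 rose and 26 did not pass in RA early HF. The gene that fell was NDUFA13, which read 12.02, 12.11 and 12.06 in RA early HF, against 12.42, 12.52 and 12.49 in RA controls. The HF arrays lay close together and below all controls, with a change of -0.41 (SE 0.09, adjusted p = 0.0348). Next by p came NDUFA3, an accessory subunit of the membrane arm, which read 11.21, 11.18 and 11.29 in RA early HF, against 11.55, 11.68 and 11.69 in RA controls (-0.41, SE 0.10, adjusted p = 0.0569). NDUFAB1, the mitochondrial acyl carrier protein, read 12.12, 12.07 and 11.98 in RA early HF, against 12.33, 12.41 and 12.37 in RA controls (-0.31, SE 0.08, adjusted p = 0.0711). The arrays of both genes did not overlap, and neither change passed. By family, the 12 NDUFA genes including NDUFAB1 had a median change of -0.31 with 12 below 0, and the 9 NDUFB genes, all of the membrane arm, a median of -0.23 with 8 below 0. The 4 accessory NDUFS and NDUFV genes were all below 0, with a median of -0.29. The single accessory gene with every HF array above every control was NDUFC1, a small membrane-arm subunit, at 12.56, 12.50 and 12.61 in RA early HF, against 12.39, 12.35 and 12.48 in RA controls (0.15, SE 0.09, adjusted p = 0.482). Its other tested probe set was at -0.31 (adjusted p = 0.281). NDUFB5 was the other accessory gene above 0, by 0.03 (SE 0.11, adjusted p = 0.958), and its other tested set was at -0.41 (adjusted p = 0.161).

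**Figure D1:**
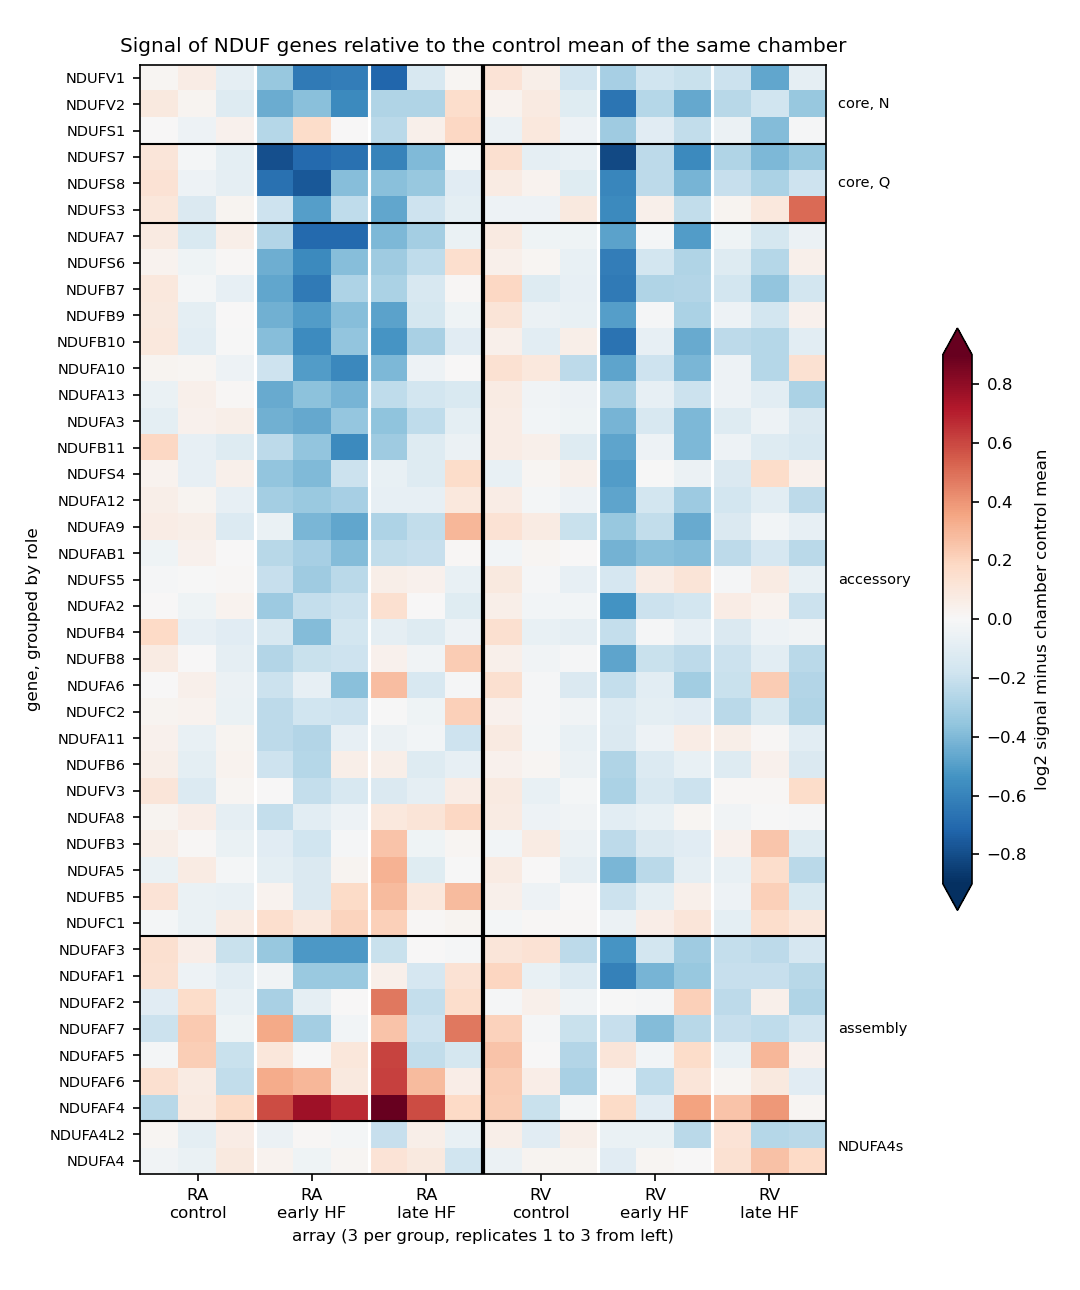
Heat map of the 42 NDUF genes (rows, grouped by role and ordered within a role by the change in RA early HF) on the 18 arrays (columns, 3 per group), coloured by log2 signal minus the mean of the 3 control arrays of the same chamber, with colours capped at 0.9 in either direction. Most subunit rows are blue in the early HF columns of both chambers and pale in late HF, RA late HF replicate 3 is pale or red in most subunit rows, and NDUFAF4 is red in RA early HF.

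As a whole, 31 of the 33 subunit genes were below 0 in RA early HF, with a median change of -0.31 and a range of -0.72 to 0.15. Over the 10988 genes tested, the median change was -0.02 and 53.9% were below 0. All 3 HF arrays were below all controls in 25 of the 42 NDUF genes, where 9.45% of all genes behaved so, and above all controls in 2, NDUFAF4 and NDUFC1, where the share of all genes was 8.66%. Subunit genes are bright on the array, so the 682 genes with a mean signal above 10, which include 32 of the subunits, form a closer background. Their median change was -0.07.

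The 7 assembly factor genes showed no common direction in RA early HF: 3 were below 0 and 4 above, with a median of 0.00, and none passed. NDUFAF4, which acts with NDUFAF3 on the early Q-module intermediate, was the highest member. It read 6.67, 6.84 and 6.75 in RA early HF, against 5.83, 6.16 and 6.25 in RA controls. All HF arrays were above all controls, and the change of 0.67 (SE 0.21, adjusted p = 0.135) did not pass with all arrays in the fit. Its signal was low, with a mean of 6.58 over all arrays, and only 1 of its 2 probe sets was tested. Its partner NDUFAF3 lay the other way, at 9.80, 9.63 and 9.63 in RA early HF, against 10.29, 10.20 and 9.94 in RA controls (-0.46, SE 0.13, adjusted p = 0.105). The arrays of NDUFAF3 did not overlap. NDUFAF1, part of the complex that assembles the membrane arm, was at -0.23 (SE 0.12, adjusted p = 0.432). NDUFAF5, which hydroxylates NDUFS7, was at 0.07 (SE 0.19, adjusted p = 0.933), and NDUFAF6, a factor of early assembly, at 0.24 (SE 0.16, adjusted p = 0.574). NDUFAF2, a late-acting factor, was at -0.12 (SE 0.15, adjusted p = 0.807), and NDUFAF7, an assembly factor with methyltransferase activity, at 0.00 (SE 0.17, adjusted p = 0.995). NDUFA4 and NDUFA4L2, which are not complex I subunits, were at 0.00 (SE 0.09) and -0.02 (SE 0.10), with adjusted p of 0.993 and 0.967. NDUFA4L2 was dim, with a mean signal of 5.72, within the range of the array medians (5.65 to 5.75).

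The number of calls in RA early HF depended on single arrays. RA late HF replicate 3 is in neither group of this comparison and enters only the shared estimate of spread. Without it, 9 NDUF genes passed, of which 8 were lower (NDUFA13, NDUFA3, NDUFA7, NDUFAB1, NDUFS6, NDUFS7, NDUFS8 and NDUFV2) and 1 higher, NDUFAF4 (adjusted p = 0.0425). The share of all probe sets that passed was then 3.22%, with 1.59% lower and 1.63% higher. Without RA late HF replicate 1, 10 passed. For this fit and those that follow, the share of all probe sets that passed is not given. Without RA control replicate 1, 2 or 3 or RA early HF replicate 2, 0 passed, and without RA early HF replicate 1 or 3, 1 passed, NDUFA7 in the first case and NDUFS8 in the other. Without RV control replicate 2 or 3 or RV early HF replicate 3, NDUFS7 and NDUFS8 passed and NDUFA13 did not. Over the 18 fits that each left out 1 array, NDUFS8 passed in 13, NDUFS7 in 12 and NDUFA13 in 9.

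**Figure D2:**
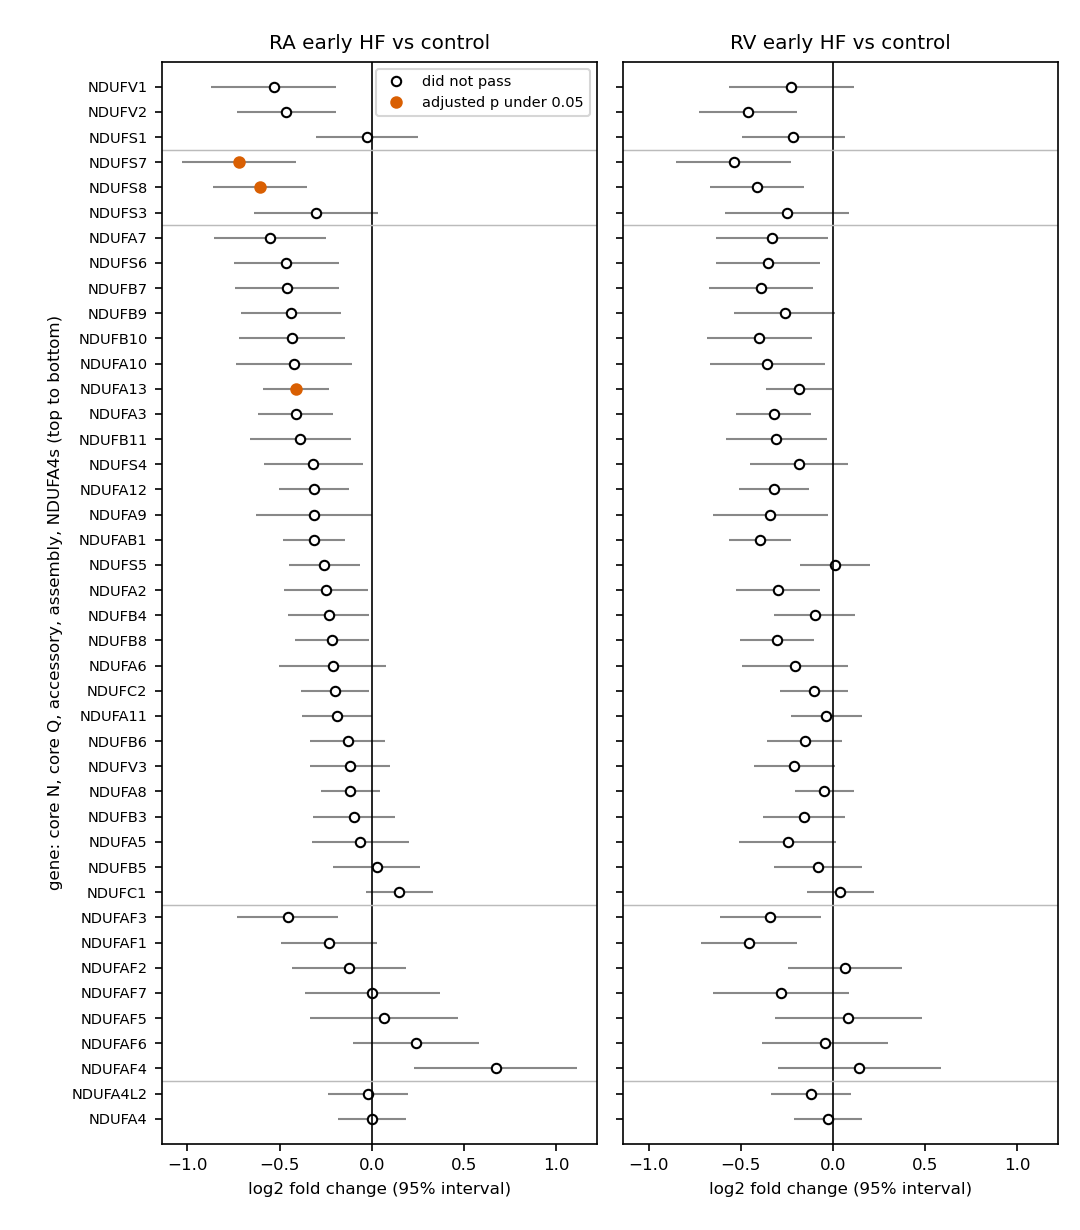
Log2 fold change of each NDUF gene (points) with its 95% confidence interval (lines) in RA early HF against RA control (left) and RV early HF against RV control (right), from the limma fit with 3 arrays per group. Filled points mark the 3 genes that passed, NDUFS7, NDUFS8 and NDUFA13 in the RA; in the RV none passed, and most subunit points lie left of 0 in both panels.

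Other lists were read beside the NDUF genes in RA early HF. The 36 tested genes of complexes II to V, the rest of the respiratory chain and the ATP synthase, had 33 members below 0 in RA early HF and a median change of -0.21, with none past the threshold and 4 lower without RA late HF replicate 3. All 12 fibroblast markers tested were above 0 with a median of 0.90, and 1 rose, POSTN (4.61, SE 0.92, adjusted p = 0.0325). Without RA late HF replicate 3, 8 of the 12 rose, among them COL1A2 (adjusted p = 0.0151) and LUM (adjusted p = 0.0145). The mean signal of that list was 10.13 to 11.02 on RA early HF arrays and 9.27 to 9.46 on RA control arrays. Of 12 macrophage markers, 10 were above 0 with a median of 0.62, none rose with all arrays and 5 rose without RA late HF replicate 3. Their mean signal was 7.79 to 8.54 in RA early HF and 7.25 to 7.35 in RA controls. Of 13 markers of cardiac myocytes of either chamber, 10 were below 0 with a median of -0.23, and 1 fell, TNNT2 (-0.42, SE 0.09, adjusted p = 0.0389), or 2 without RA late HF replicate 3. The mean signal of the myocyte markers was 12.37 to 12.58 in RA early HF and 12.66 to 12.79 in RA controls. Of 8 smooth muscle and pericyte markers, 2 rose, MYLK (1.60, SE 0.28, adjusted p = 0.0213) and RGS5 (1.05, SE 0.21, adjusted p = 0.0348), and 1 fell, SMTN (-0.82, SE 0.18, adjusted p = 0.0469). The list's mean signal was 8.12 to 8.40 in RA early HF and 7.84 to 7.99 in RA controls. Of 6 ventricular myocyte markers, none passed with all arrays and 3 rose without RA late HF replicate 3, MYL2, MYL3 and MYOZ2. The mean signal of 10 atrial myocyte markers was 9.266 to 9.385 in RA early HF and 9.509 to 9.742 in RA controls. Their median deviation from the RA control mean averaged -0.294 over the RA early HF arrays. That of the 13 myocyte markers of either chamber averaged -0.212, and that of the NDUF subunits -0.293. The single arrays differed more: on replicates 1, 2 and 3 the atrial list was at -0.433, -0.238 and -0.21. The subunits were at -0.25, -0.353 and -0.277 on the same arrays. The part of these cell type markers in the NDUF changes was not tested.

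In RV early HF, 0 of the 42 NDUF genes passed against RV controls, where 0.105% of all probe sets passed. At an unadjusted p under 0.05, 18 genes were lower and 0 higher. The direction was again mostly downward: 37 of the 42 were below 0 against 52.6% of all genes, and the 33 subunits had a median change of -0.25, with 31 below 0. All 3 HF arrays were below all controls in 20 genes and above them in 0, where 8.98% of all genes were wholly lower and 7.02% wholly higher. The median change was -0.01 over all genes and 0.02 over genes with a mean signal above 10.

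NDUFAB1 had the smallest p in the RV. It read 12.07, 12.12 and 12.10 in RV early HF, against 12.47, 12.51 and 12.50 in RV controls. Each group's arrays were close together and the groups apart, and the change of -0.40 (SE 0.08, adjusted p = 0.0565) did not pass. NDUFS7 read 10.97, 11.55 and 11.21 in RV early HF, against 11.93, 11.70 and 11.72 in RV controls (-0.54, SE 0.15, adjusted p = 0.172). NDUFV2 read 11.50, 11.90 and 11.70 in RV early HF, against 12.19, 12.24 and 12.05 in RV controls (-0.46, SE 0.13, adjusted p = 0.174). In both genes the HF arrays were spread widely but stayed below the controls. NDUFS8 was at 10.67, 11.02 and 10.84 in RV early HF, against 11.33, 11.29 and 11.15 in RV controls (-0.41, SE 0.12, adjusted p = 0.229). NDUFA12, an accessory subunit of the peripheral arm, read between 11.85 and 12.16 in RV early HF, against 12.39, 12.31 and 12.28 in RV controls (-0.32, SE 0.09, adjusted p = 0.186). The other core genes NDUFV1, NDUFS1 and NDUFS3 were at -0.23 (SE 0.16), -0.22 (SE 0.13) and -0.25 (SE 0.16), with adjusted p of 0.799, 0.733 and 0.758.

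Among assembly factors in RV early HF, NDUFAF1 read 8.39, 8.58 and 8.66, against 9.19, 8.93 and 8.88 in RV controls. Its arrays did not overlap, with a change of -0.46 (SE 0.12, adjusted p = 0.166). NDUFAF3 was at -0.34 (SE 0.13, adjusted p = 0.431) and NDUFAF7 at -0.28 (SE 0.17, adjusted p = 0.738). NDUFAF4 read 6.67, 6.40 and 6.86 in RV early HF, against 6.72, 6.30 and 6.48 in RV controls, overlapping, with a change of 0.14 (SE 0.21, adjusted p = 0.931). NDUFAF2, NDUFAF5 and NDUFAF6 were at 0.07, 0.08 and -0.04.

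The RV early HF arrays differed among themselves. Replicate 1 was the lowest of the 3 in 30 of the 33 subunit genes, and replicate 2 the highest in 23. The median deviation of the 42 genes from the RV control mean was -0.33, -0.11 and -0.22 on replicates 1, 2 and 3. Without replicate 2, 4 genes passed, all lower: NDUFA12, NDUFAB1, NDUFB10 and NDUFS7. The share of all probe sets that passed in that fit is not given here. NDUFAB1 passed alone without RA late HF replicate 1 or 3 (adjusted p = 0.0173 without replicate 3, when 0.54% of all probe sets passed). Without RV early HF replicate 1, 0 passed and the median change was -0.17.

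**Figure D3:**
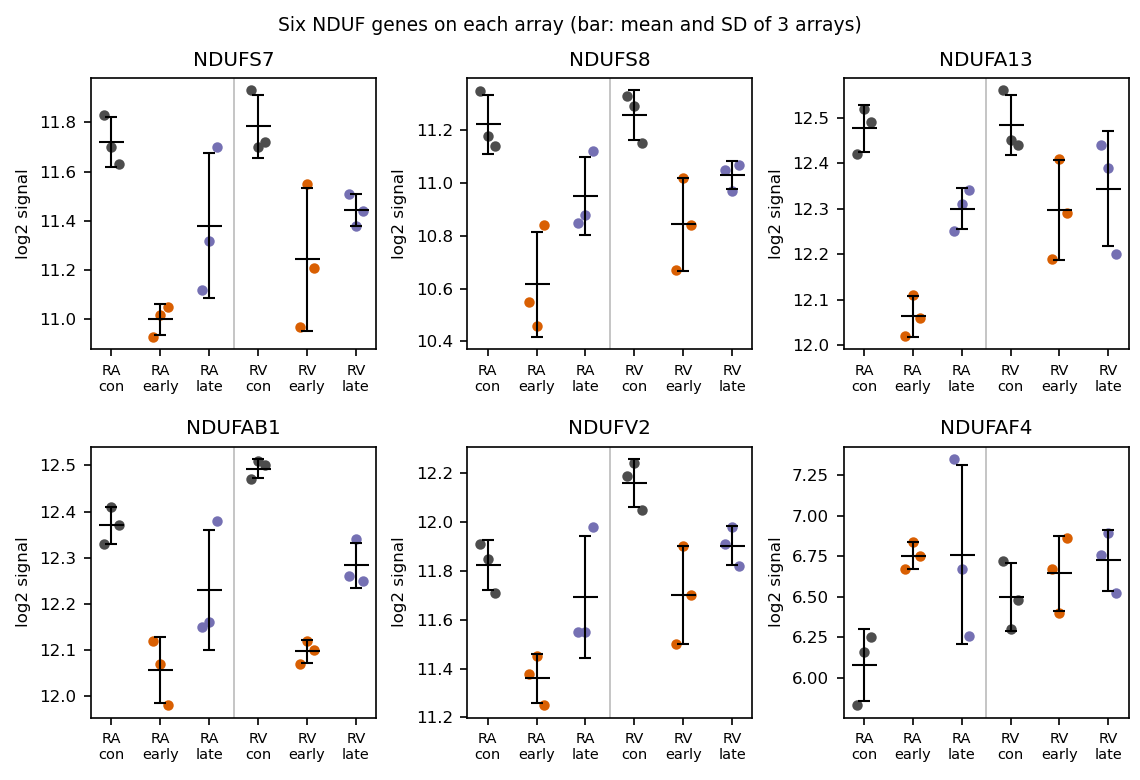
Log2 signal of 6 NDUF genes on each array (points) by chamber and stage, with the mean and SD of the 3 arrays of each group (bars); each gene has its own vertical scale, which does not start at 0. NDUFS7, NDUFS8, NDUFA13, NDUFAB1 and NDUFV2 are lowest in early HF in both chambers, while NDUFAF4 is lowest in RA controls.

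The same marker lists were read beside the RV changes. In RV early HF, the 12 fibroblast markers had a median change of 0.45, the macrophage markers 0.11 and the myocyte markers -0.01, beside the subunit median of -0.25. In RV late HF, the fibroblast markers had a median of 0.79 and the macrophage markers 0.43, beside a subunit median of -0.08. Within RA early HF, replicate 1 had the highest fibroblast deviation (1.24, against 0.54 and 0.84 on replicates 2 and 3) and a median NDUF deviation of -0.23, against -0.31 and -0.21. Within RV early HF, replicate 1 had the highest fibroblast deviation (0.47, against 0.40 and 0.32) and the highest macrophage deviation (0.28, against 0.09 and -0.13), and it had the lowest NDUF deviation. Within RA late HF, replicate 3 had the lowest fibroblast deviation (-0.61, against 0.94 and 0.38) and the highest NDUF deviation. That array carries ventricular markers, and its deviations are taken from RA controls. The mean fibroblast signal was 8.384 to 8.596 in RV controls and 9.27 to 9.458 in RA controls. The mean NDUF signal was 10.877 to 11.025 in RV controls and 10.785 to 10.853 in RA controls. The part of this chamber difference in the deviations of replicate 3 was not tested. The genes of complexes II to V had 30 of 36 members below 0 in RV early HF and a median change of -0.18.

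The early changes in the chambers were compared gene by gene. The RA and RV comparisons share no arrays, but replicate numbers may mark the same dogs in control and early HF. Across the 42 genes the RA and RV changes had a Pearson correlation of 0.764 and a Spearman correlation of 0.759, and 33 were below 0 in both. Over all 10988 genes the Pearson correlation was 0.432, and 33.8% were below 0 in both. All arrays were lower in both chambers for 13 NDUF genes, which is 52% of those wholly lower in the RA and 65% of those in the RV. Over all genes, 22.2% and 23.3% were shared in the same way. The 13 genes were NDUFS7, NDUFS8, NDUFV1, NDUFV2, NDUFA2, NDUFA3, NDUFA12, NDUFA13, NDUFAB1, NDUFB7, NDUFB8, NDUFC2 and NDUFS6. In the direct test of the difference between chambers in the early HF effect, 0 NDUF genes passed, where 0.00388% of all probe sets did, and 0 had an unadjusted p under 0.05. The smallest p belonged to NDUFS5, an accessory subunit of the membrane arm, with an RA minus RV difference of -0.27 (95% interval -0.54 to 0.00, adjusted p = 0.916). For NDUFA13, which passed in the RA alone, the difference was -0.23 (95% interval -0.48 to 0.03, adjusted p = 0.96), and for NDUFAF4 it was 0.53 (95% interval -0.10 to 1.16, adjusted p = 0.978).

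In RA late HF, 0 NDUF genes passed against RA controls, where 0.0699% of all probe sets did. At an unadjusted p under 0.05, 4 were lower and 1 higher, against 11 and 2 without RA late HF replicate 3. The median change of the subunits was -0.08, with 23 of 33 below 0, and of all genes 0.00. Of the 42 genes, 25 were below 0 against 50.7% of all genes, or 27 against 54.6% without that array. All arrays were lower than controls in 3 genes (5.87% of all genes), namely NDUFS8, NDUFA13 and NDUFB10, and higher in 2 (6.11% of all genes), NDUFAF4 and NDUFA8. With only replicates 1 and 2, they were lower in 14 (15.6% of all genes) and higher in 4 (16.5% of all genes). NDUFS7 read 11.12, 11.32 and 11.70 in RA late HF, overlapping with its 3 controls, with a change of -0.34 (SE 0.15, adjusted p = 0.388). NDUFS8 read 10.85, 10.88 and 11.12 in RA late HF (-0.27, SE 0.12, adjusted p = 0.401), and NDUFA13 read 12.25, 12.31 and 12.34 (-0.18, SE 0.08, adjusted p = 0.438). NDUFB10, an accessory subunit of the membrane arm, was at -0.31 (SE 0.13, adjusted p = 0.392). NDUFA3, which had the smallest p of the genes below 0, was at -0.23 (adjusted p = 0.381, or 0.131 without RA late HF replicate 3). The other core genes NDUFV1, NDUFV2, NDUFS3 and NDUFS1 were at -0.28, -0.13, -0.25 and 0.00, and none passed.

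RA late HF replicate 3, which carries ventricular markers, was the highest of its group in 24 of the 33 subunit genes. Its median NDUF deviation was 0.01, against -0.08 and -0.12 on replicates 1 and 2. Without it the median change of the subunits was -0.11, and NDUFS7 was at -0.50 (adjusted p = 0.0709). NDUFS8 was then at -0.36 (adjusted p = 0.145), NDUFB10 at -0.41 (adjusted p = 0.126) and NDUFA13 at -0.20 (adjusted p = 0.259). NDUFV1, NDUFV2, NDUFS3 and NDUFS1 were then at -0.43, -0.27, -0.33 and -0.10, and none passed. NDUFAF4 read 7.35, 6.67 and 6.26 in RA late HF, and its lowest array lay barely above the highest RA control of 6.25. Its change was 0.68 (SE 0.21, adjusted p = 0.248) with all arrays and 0.93 (SE 0.19, adjusted p = 0.0273) without replicate 3, when it was the only NDUF gene to pass and 1.65% of all probe sets did. The assembly factors had a median of 0.14 in RA late HF, with 6 of 7 above 0, or 0.13 with 5 above 0 without replicate 3. NDUFAF6 was at 0.32 (SE 0.16, adjusted p = 0.459), NDUFAF7 at 0.18 and NDUFAF2 at 0.14, while NDUFAF3 was at -0.07. Without replicate 3 these were at 0.45 for NDUFAF6, 0.03 for NDUFAF7, 0.13 for NDUFAF2 and -0.10 for NDUFAF3.

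In RV late HF, 0 NDUF genes passed against RV controls, and 0% of all probe sets did. At an unadjusted p under 0.05, 3 were lower and 1 higher. The subunit median was -0.08 with 26 of 33 below 0. Of the 42 genes, 31 were below 0 against 52.9% of all genes. Their median was -0.08, or -0.14 without RV control replicate 3 and -0.05 without RV control replicate 1. All arrays were lower in 10 NDUF genes, where 10.5% of all genes were wholly lower, and higher in 1, NDUFA4, where 9.48% were. NDUFAB1 read 12.26, 12.34 and 12.25 in RV late HF, below all 3 of its controls, with a change of -0.21 (SE 0.08, adjusted p = 0.463). NDUFS7 read 11.51, 11.38 and 11.44 in RV late HF, also below all controls (-0.34, SE 0.15, adjusted p = 0.514). NDUFC2 and NDUFV2 were at -0.22 (SE 0.09, adjusted p = 0.495) and -0.26 (SE 0.13, adjusted p = 0.554). NDUFS8, NDUFV1 and NDUFS1 were at -0.23, -0.25 and -0.15, and the assembly factors NDUFAF1, NDUFAF3 and NDUFAF4 at -0.22, -0.20 and 0.22, none past the threshold. The complex IV gene NDUFA4 had all arrays above controls, at 12.55, 12.68 and 12.59 in RV late HF, against 12.36, 12.44 and 12.44 in RV controls (0.19, SE 0.09, adjusted p = 0.53). The other tested probe set of NDUFA4, with a mean signal of 11.95, was at -0.07 (adjusted p = 0.858). NDUFS3 was the core gene above 0 (0.21, SE 0.16, adjusted p = 0.697), with 11.65 on replicate 3 and 11.17 and 11.24 on the others. The other tested probe set of NDUFS3 was at -0.11 (adjusted p = 0.839). In the test of the chamber difference in the late HF effect, 0 NDUF genes passed, where 0.00777% of probe sets did, and 1 had an unadjusted p under 0.05, NDUFC2 (0.27, SE 0.12, adjusted p = 0.632). Without RA late HF replicate 3 it was at 0.20 (SE 0.12, adjusted p = 0.69).

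**Figure D4:**
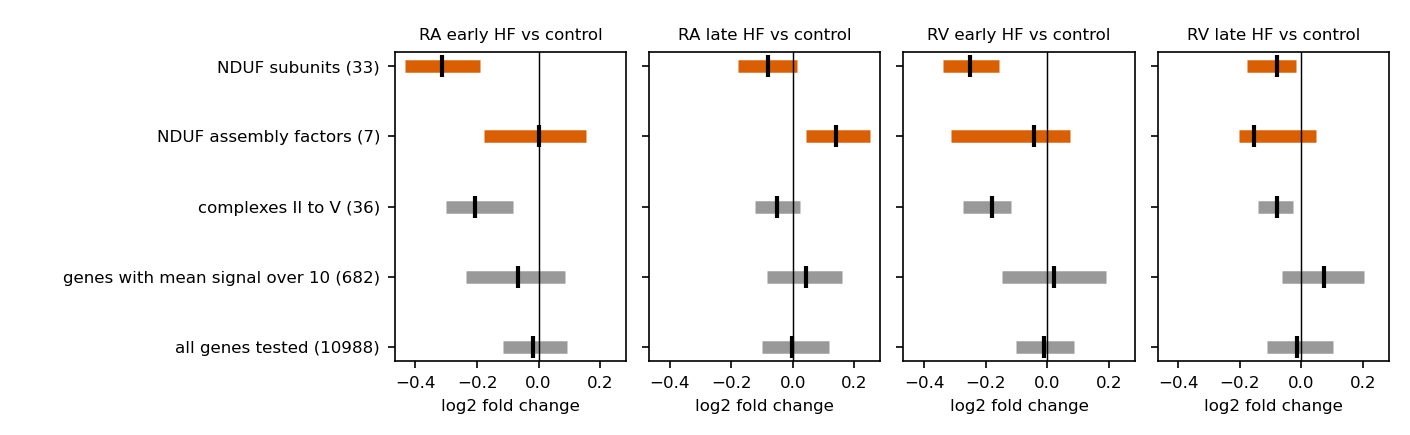
Median (black tick) and middle 50% (bar, between the quartiles) of log2 fold changes for 5 lists of genes in the 4 HF comparisons, with the number of genes in brackets. NDUF subunits have medians of -0.31 and -0.25 in early HF of the RA and RV and -0.08 in late HF of both chambers, and all genes tested have medians of -0.02, 0.00, -0.01 and -0.01 in the panels from left to right.

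Late was also set against early HF within each chamber. These comparisons share the early HF arrays with those above, so their signs are not independent of them. In the RA, 0 NDUF genes passed and 0% of all probe sets did, and 15 were higher at an unadjusted p under 0.05, or 7 without RA late HF replicate 3. The median of the 42 genes was 0.23, or 0.18 without RA late HF replicate 3, against 0.11 for genes with a mean signal above 10. Of the 42, 2 were below 0 against 47.1% of all genes, or 4 against 48.8% without that array. All late arrays were above all early arrays in 15 NDUF genes (5.06% of all genes) and below them in 0 (2.3% of all genes). Without RA late HF replicate 3 these counts were 17 (9.82% of all genes) and 0 (6.34% of all genes). The smallest p values were those of NDUFA8 (0.25, SE 0.08, adjusted p = 0.438) and NDUFA12 (0.29, SE 0.09, adjusted p = 0.438), which were at 0.22 and 0.24 without that array. NDUFAF4 averaged 6.76 ± 0.55 in RA late HF and 6.75 ± 0.09 in RA early HF (SD, n = 3 each), and without RA late HF replicate 3 the difference was 0.26 (SE 0.19, adjusted p = 0.715). In the RV, 0 passed and 0% of all probe sets did, and 6 were higher at an unadjusted p under 0.05. The median was 0.16, with 5 of 42 below 0 against 49.4% of all genes, and it was 0.08 without RV early HF replicate 1. All late arrays were above all early arrays in 6 genes (6.3% of all genes) and below them in 1, NDUFC2 (6.69% of all genes). NDUFS3 had the smallest p there (0.46, SE 0.16, adjusted p = 0.775).

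**Figure D5:**
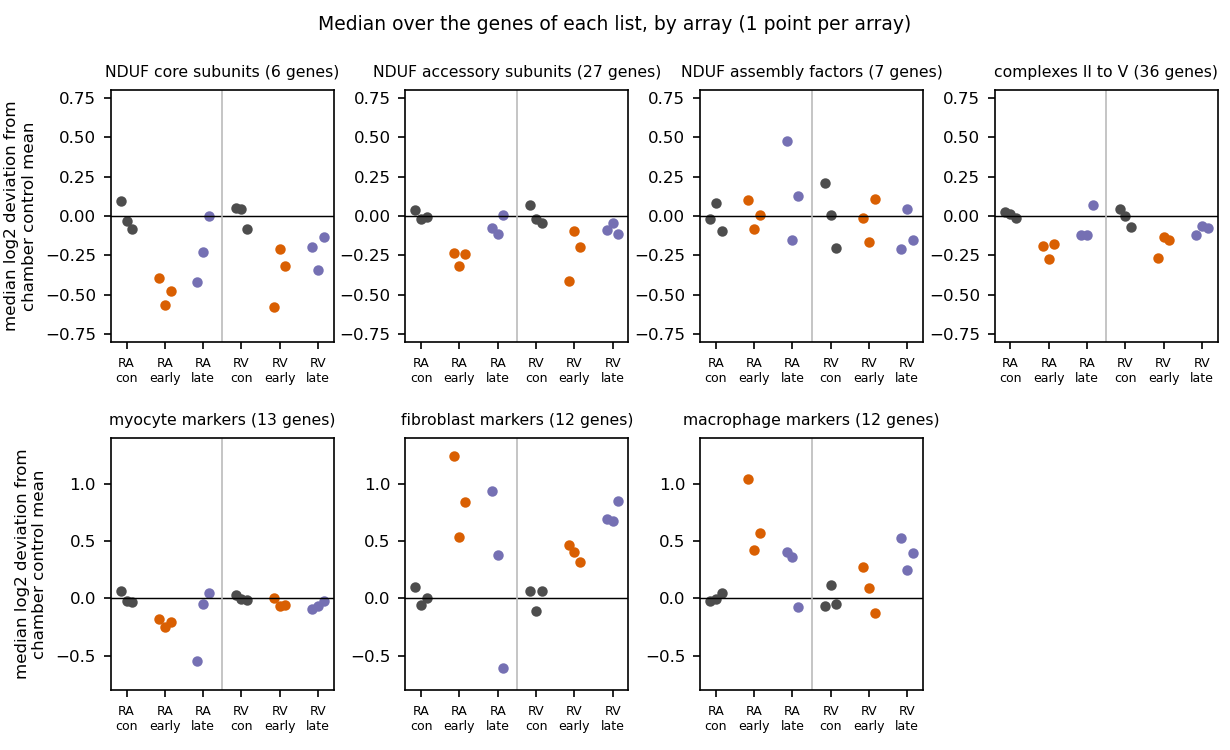
Median over each list's genes of log2 signal minus the control mean of the same chamber, with 1 point for each of the 18 arrays. Core and accessory NDUF subunits and complexes II to V are below 0 on all early HF arrays, assembly factors scatter around 0, and the fibroblast markers are above 0 on all HF arrays except RA late HF replicate 3.

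Without HF, 0 NDUF genes passed between RA and RV controls, where 2.9% of all probe sets did, and 10 were lower in the RA at an unadjusted p under 0.05. The median RA minus RV difference was -0.13, with 34 of 42 below 0 against 54.9% of all genes. The median was -0.19 with quantile normalization and -0.03 over the 27 genes left without probe sets that may cross-hybridise, of which 18 were below 0. All RA arrays were below all RV arrays in 18 genes (14.5% of all genes). NDUFA8 had the smallest p, at 12.31, 12.34 and 12.20 in RA controls, against 12.60, 12.48 and 12.49 in RV controls (-0.24, SE 0.08, adjusted p = 0.107). NDUFV2 was at -0.34 (SE 0.13, adjusted p = 0.175) and NDUFAF7 at -0.48 (SE 0.17, adjusted p = 0.157). NDUFS7, NDUFS8 and NDUFA13, the genes that fell in RA early HF, were at -0.06, -0.03 and -0.01 between control chambers. NDUFA4 was the single gene wholly higher in the RA (12.8% of all genes), by 0.11 (SE 0.09, adjusted p = 0.606).

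Further probe sets were tested for 24 of the genes. Of these 32 further sets, 20 were below 0 in RA early HF with a median of -0.22, and 29 in RV early HF with a median of -0.22. The sign matched that of the gene's main probe set in 24 and 26 of the 32. It matched in fewer in late HF, 21 of the 32 in the RA and 17 in the RV. The late HF directions of single genes are therefore less certain than the early ones. NDUFAB1 had 5 tested sets, of which 4 were below 0 in RA early HF, and 1 of the further sets fell (-0.77, adjusted p = 0.0137), while a dim set with a mean signal of 7.3 was at 0.29 (adjusted p = 0.87). The sets of NDUFS1 ran in both directions, at -0.03, 0.06, -0.35 and 0.24 in RA early HF, with the smallest adjusted p at 0.319. NDUFS7, NDUFS8 and NDUFA13 each had 1 probe set, of a kind that may also bind related transcripts. Subunits read by such sets had a median of -0.26 in RA early HF (21 genes), and the 12 others a median of -0.42.

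Assembly factors of complex I with other names were also read. Of 8 tested, 6 were below 0 in RA early HF with a median of -0.10, and 5 in RV early HF with a median of -0.14, and none passed. ACAD9 and ECSIT, which act with NDUFAF1, were at -0.45 (adjusted p = 0.128) and -0.22 (adjusted p = 0.639) in RA early HF and at -0.39 (adjusted p = 0.375) and -0.50 (adjusted p = 0.339) in RV early HF. Among 7 tested regulators of mitochondrial gene expression, none passed in either chamber. PPARGC1A, a coactivator of respiratory chain genes, was at -0.54 (adjusted p = 0.523) in RA early HF and -0.62 (adjusted p = 0.669) in RV early HF, and TFAM, which packages and transcribes mitochondrial DNA, at 0.05 (adjusted p = 0.93) and -0.19 (adjusted p = 0.831). In the reference annotation (assembly UU_Cfam_GSD_1.0), NDUFS8 and NDUFV1 lie near each other with 7 protein-coding genes between them, and no other neighbouring pair of NDUF genes has fewer than 32 between.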

How the data were processed

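Biotin-labelled cRNA from total RNA was hybridised to Affymetrix Canine_2 arrays, and MAS5 is named in the submitters' processing notes without a version or target. The deposited values are log2 signals, a unit inferred from their range, and nothing in the labels states a step between arrays. They were used without renormalization. From 43035 probe sets, 111 controls and the dimmest 40% of the rest by mean signal were removed, so 25752 remained. Symbols came from the platform annotation. Limma 3.58.1 (R 4.3.3) fitted 6 group means to 18 arrays (12 residual degrees of freedom), with two-sided moderated tests, a trended prior and Benjamini-Hochberg adjustment over all probe sets. The fit was tested on simulated data. Figures used Python 3.11.15 and matplotlib 3.10.9.

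Members, lists and alternatives were chosen with earlier results of these data known. Genes named came from those past the threshold, or with fewer than 5 the 5 smallest p in each direction. Core subunits and assembly factors were added to these. Not every gene that this rule picks is named in each comparison. The background of genes above a signal of 10 and the count shared by both chambers were chosen after values were seen. So were the further genes named in passing. Replicate numbers were checked by correlating deviations from group means: RA and RV arrays of 1 number correlated at 0.237 to 0.421 in controls and 0.151 to 0.26 in early HF, but at -0.421 to 0.154 in late HF, and numbers did not pair stages within a chamber. No array duplicated another (at least 97.5% of values unequal in each pair). The number of arrays limits the precision.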

Additional observations from a re-analysis of the deposited data

How the results depend on the processing

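The number of NDUF genes past the threshold in RA early HF was 3. It was 17 with array weights, 8 with the compared groups alone in the fit, 1 of 27 genes without probe sets that may cross-hybridise, and 0 with the replicate block, although numbers do not pair stages. Quantile normalization and the mean of a gene's probe sets left it at 3, and no dim filter at 2. Leaving out 1 array gave 0 to 10 in RA early HF, 0 to 1 in RA late HF, 0 to 4 in RV early HF and 0 in the other comparisons. Array weights gave 3 in RV early HF, and the RA against RV control comparison gave 4 with the compared groups alone, 2 with array weights and 1 with the mean of probe sets. All other counts stayed at 0, also with the replicate block, which changed no other call. Apart from the main fit and that without RA late HF replicate 3, these counts stand without the share of all probe sets that passed. The median change of the 42 genes ranged from -0.30 to -0.22 in RA early HF and from -0.30 to -0.17 in RV early HF over 25 alternatives. It ranged from -0.19 to -0.03 between control chambers, from -0.18 to -0.05 in RV late HF, from -0.10 to 0.00 in RA late HF, from 0.08 to 0.21 for late against early HF in the RV and from 0.16 to 0.23 in the RA. Of 77 values of named genes, 19 changed sign under some alternative, none of them past the threshold and none over 0.18 in size. With array weights these were NDUFS1 (0.053), NDUFAF7 (-0.12) and NDUFA4 (-0.003) in RA early HF, NDUFS1 (0.04), NDUFAF2 (-0.13) and NDUFAF7 (-0.10) in RA late HF, NDUFAF4 late against early in the RA (-0.10) and NDUFA13 between control chambers (0.008). Quantile normalization put NDUFAF7 at -0.011 in RA early HF and NDUFAF4 late against early in the RA at -0.039. The mean of probe sets put NDUFC1 at -0.078 and NDUFB5 at -0.19 in RA early HF, NDUFS1 at 0.24 in RA late HF and NDUFAF5 at -0.019 in RV early HF. Without cross-hybridising probe sets, NDUFAF2 was at 0.093 in RA early HF and NDUFAF5 at -0.03 in RV early HF. Leaving out 1 array gave, in RA early HF, -0.12 to 0.087 for NDUFS1, -0.033 to 0.18 for NDUFAF5, -0.17 to 0.16 for NDUFAF7, -0.047 to 0.10 for NDUFB5, -0.027 to 0.048 for NDUFA4 and -0.065 to 0.015 for NDUFA4L2. It gave, in RA late HF, -0.10 to 0.12 for NDUFS1, -0.028 to 0.32 for NDUFAF2 and -0.17 to 0.003 for NDUFAF3, and in RV early HF, -0.008 to 0.11 for NDUFAF2, -0.048 to 0.21 for NDUFAF5 and -0.19 to 0.072 for NDUFAF6. NDUFAF4 ran from -0.29 to 0.26 late against early in the RA, and between control chambers NDUFS7 ran from -0.12 to 0.01, NDUFS8 from -0.10 to 0.008 and NDUFA13 from -0.028 to 0.032. Why the counts moved was not tested. With 3 arrays per group, no NDUF change smaller than that of NDUFA13 (-0.41) passed in the main fit.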
